A study of Mus musculus with 6 samples.

Results

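Shelterin is the protein complex that coats telomeres, and 10 genes of shelterin and telomere maintenance were examined in sorted mouse embryonic stem cells. They were chosen by name, as Terf1, Terf2, Terf2ip, Tinf2, Acd, Pot1a, Pot1b, Tert, Rif1 and Atrx. All 10 had a row among the 17110 genes of the authors' deposited table, and all 10 gene identifiers also had a row in the deposited count table. The cells were of the line named TG2A, a mouse embryonic stem cell line with a fluorescent protein reporter under the control of MERVL, a retroviral element that the two-cell embryo transcribes. They were grown with serum and leukemia inhibitory factor (LIF) and sorted by flow cytometry into DsRed2+ and DsRed2- cells, with 3 samples in each group taken on different dates. Both groups carried the same reporter and share 1 growth protocol in the labels, which give no clone or passage. The study's title concerns division and rejuvenation in a two-cell-like state, and telomere genes bear on that question because telomere length is one of the features by which cells of this state have been described.

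The authors' table names neither the 2 groups behind its fold changes nor which of them is the numerator. It was read as the comparison of DsRed2+ with DsRed2- cells because the labels hold no other groups. Each sign is therefore the one in the table, and a positive value favours whichever group the authors placed in the numerator. The 6 columns of the count table carry run and barcode numbers that match no sample label, so values per sample, depth per library and the spread between replicates were not analysed here. The error given with each value is the authors' standard error, from a DESeq2 fit of 1 fold change per gene.

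Telomeres are tracts of a short repeat at chromosome ends. In shelterin, TRF1 (Terf1) and TRF2 (Terf2) bind the duplex repeat, TIN2 (Tinf2) bridges them, TPP1 (Acd) links TIN2 to the POT1 proteins on the single-stranded overhang, and RAP1 (Terf2ip) rides on TRF2. The mouse has a pair of POT1 genes, Pot1a and Pot1b, where humans have a single one. Telomerase adds repeats through its reverse transcriptase, TERT (Tert). RIF1 (Rif1) acts in replication timing and DNA repair and is abundant in embryonic stem cells. ATRX (Atrx) is the chromatin remodeller that deposits histone H3.3 at telomeres together with DAXX.

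Shelterin holds 2 pairs of similar genes, and their coding sequences are shown first because reads from such pairs could be divided between the copies when counted. In GENCODE M21 (GRCm38), the coding sequences of Pot1a and Pot1b, each 1920 bases long, were 78.8% identical over 1917 aligned bases, and the longest identical run was 41 bases. Those of Terf1 (1263 bases) and Terf2 (1623 bases) were 63.1% identical over 1238 aligned bases, with a longest identical run of 17 bases. The 100 most alike coding bases of each pair, among aligned stretches without a gap, are given below 5′ to 3′, with the bases that differ in capitals. Positions are counted from 1 at the first base of the start codon. The Pot1a and Pot1b windows both run from 69 to 168, near the start of the coding sequence, and 91 of their 100 bases were identical.
Pot1a: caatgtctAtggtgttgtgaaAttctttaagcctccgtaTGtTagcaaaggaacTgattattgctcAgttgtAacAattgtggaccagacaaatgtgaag
Pot1b: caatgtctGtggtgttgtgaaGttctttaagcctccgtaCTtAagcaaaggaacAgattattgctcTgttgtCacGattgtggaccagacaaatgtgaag
The Terf1 window runs from 1150 to 1249 and the Terf2 window from 1513 to 1612, near the end of the coding sequence, where both proteins carry the Myb-type domain that binds the repeat. Here 64 of 100 bases were identical, close to the 63.1% over all aligned bases of the pair.
Terf1: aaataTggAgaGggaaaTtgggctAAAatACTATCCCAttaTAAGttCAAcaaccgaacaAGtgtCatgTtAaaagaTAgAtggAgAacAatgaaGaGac
Terf2: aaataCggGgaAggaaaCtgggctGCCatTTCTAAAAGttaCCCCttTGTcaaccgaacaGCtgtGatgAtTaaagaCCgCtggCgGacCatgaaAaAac
No stretch of 50 bases of the longest coding transcript of Pot1a, Terf2, Rif1 or Atrx occurred in a transcript of another gene, on either strand. For Terf1, 1.17% of the 50-base stretches did, for Terf2ip 1.05%, for Pot1b 2.07% and for Tert 0.329%. Tinf2 and Acd stood apart from the other 8 genes, with 35.9% and 26.0%. Tinf2 shares 1540 exonic bases (31.2% of its exons) with Gmpr2, and Acd shares 1208 exonic bases (33.3%) with Carmil2, in each case from the opposite strand. Whether the authors' counting used strand is not given in the sources used here. It is therefore not known whether reads of Tinf2 and Acd were told apart from those of these partners over the shared bases.

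Of the 10 genes, 3 had a positive fold change past an adjusted p-value of 0.05 in the authors' deposited table and 0 had a negative one. These were Terf1, Rif1 and Atrx. The 3 calls are 30.0% of the 10 genes, and 30.5% of all 17110 genes were called in either direction, 14.6% positive and 15.9% negative, so the share of these genes called was close to that of the whole table. At an unadjusted p-value under 0.05 there were 5, the others being Acd and Pot1b, both negative. The median log2 fold change was 0.013 over the 10 genes and 0.0097 over the 17110 genes in the authors' deposited table. Of the 10 values, 5 were positive. When the fold changes were centred on 76 ribosomal protein genes, whose median was 0.093, only the Terf1 call among the 3 was kept and Acd and Pot1b gained negative calls. That centring also moved the positive share of all calls from 47.8% to 34.7%.

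**Figure D1:**
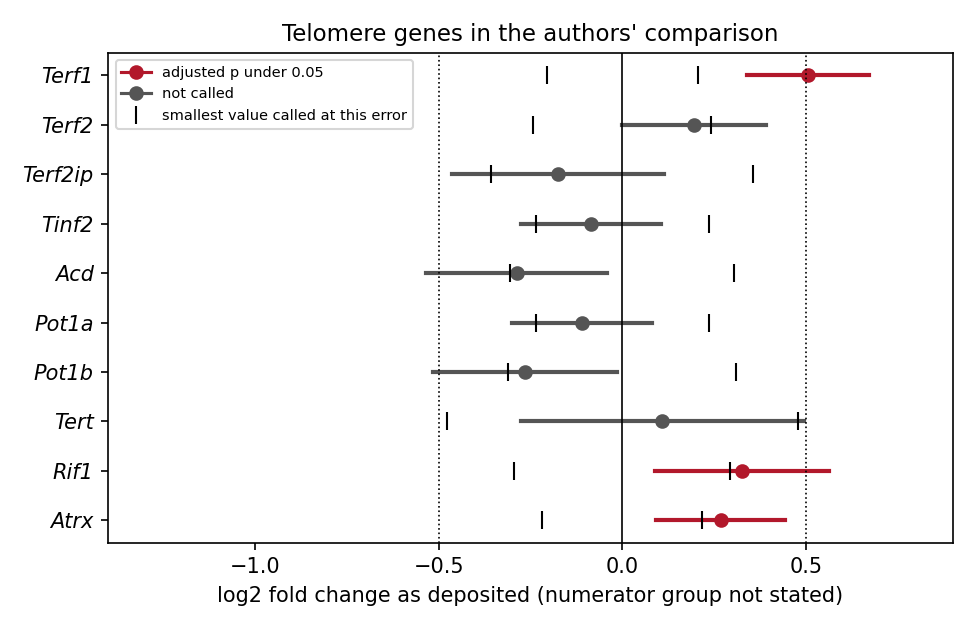
Log2 fold change of each of the 10 genes in the authors' deposited table (points) with its 95% interval from the deposited standard error (lines). Ticks mark the smallest value of either sign that would have been called at that standard error. Dotted lines mark a log2 fold limit of 0.5, and red an adjusted p-value under 0.05. Terf1 alone lies past the limit, Rif1 and Atrx lie just past their ticks, and the other 7 lie inside theirs.

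Terf1 had the strongest evidence of a difference among the 10 genes. TRF1 protects the duplex repeat and is needed for its replication. The authors' deposited table gives Terf1 (ENSMUSG00000025925) a mean normalized count of 4131 and a log2 fold change of 0.51 ± 0.085 (SE), at adjusted p = 3.69e-08. This is a ratio of 1.42 between the groups, with a 95% interval from 1.27 to 1.59. Smaller p-values were held by 6.43% of all genes. As deposited, the value was just past a limit of 0.5 on the log2 scale. It fell below that limit at 0.496 when centred on the median of all genes and at 0.413 when centred on the ribosomal protein genes. With the GC and length trend removed it was 0.56. In the deposited values, Terf1 was the single gene of the 10 past both that limit and the p-value threshold. Both were passed by 21.5% of all genes, 9.4% with a positive and 12.1% with a negative value.

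Terf2, the other duplex-binding gene, had a mean normalized count of 1369 and a log2 fold change of 0.20 ± 0.10 (SE) in the authors' deposited table, and it was not called (adjusted p = 0.131). Its 95% interval ran from -0.00025 to 0.39, and that of Terf1 from 0.34 to 0.67. The intervals overlapped, and the difference between the genes was not tested. At the error of Terf2, a log2 fold change of 0.24 would have been called.

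The other 5 shelterin genes all had negative values, none of them called. Terf2ip, which encodes the TRF2 partner RAP1, had a mean normalized count of 632 and a log2 fold change of -0.18 ± 0.15 (SE) in the authors' deposited table (adjusted p = 0.405). Tinf2, the bridge of the complex, stood at -0.084 ± 0.097 (SE) in the authors' deposited table, at a mean count of 1226 (adjusted p = 0.574). The most negative value belonged to Acd.

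Acd encodes TPP1, which recruits telomerase to the chromosome end. The authors' deposited table lists Acd (ENSMUSG00000038000) with a mean normalized count of 578.5 and a log2 fold change of -0.29 ± 0.13 (SE), at adjusted p = 0.0694. Its 95% interval, from -0.53 to -0.040, left out 0, but the call was missed after adjustment over all genes. It was called at -0.38 when centred on the ribosomal protein genes (adjusted p = 0.0107, from a Wald test recomputed on the DESeq2 values), with a range up to 0.0694 over the 8 alternatives. Carmil2, the gene that overlaps Acd, stood at -0.19 ± 0.20 (SE) in the authors' deposited table, and Gmpr2, which overlaps Tinf2, at 0.027 ± 0.15 (SE). Neither overlapping gene was called, at adjusted p-values of 0.528 and 0.921 in the authors' deposited table. Their part in the values of Acd and Tinf2 was not tested.

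The POT1 genes both had negative values. POT1a represses damage signalling at the overhang, and POT1b limits trimming of the strand that ends 5′. In the authors' deposited table Pot1a had a mean normalized count of 1547 and a log2 fold change of -0.11 ± 0.097 (SE) (adjusted p = 0.431). Pot1b had a mean count of 650.3 and a log2 fold change of -0.27 ± 0.13 (SE) there (adjusted p = 0.106 in the authors' deposited table). The 95% intervals, from -0.30 to 0.080 for Pot1a and from -0.52 to -0.014 for Pot1b, overlapped over most of their length, and the difference between the genes was not tested. Pot1b was called at -0.36 after centring on the ribosomal protein genes (adjusted p = 0.0198, from the recomputed Wald test), where its alternatives reached up to 0.191.

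Tert, the catalytic subunit of telomerase, had the least certain value of the 10. Its mean normalized count was 545.6 and its log2 fold change 0.11 ± 0.20 (SE) in the authors' deposited table (adjusted p = 0.736). The 95% interval ran from -0.28 to 0.50, which as a ratio is 0.825 to 1.41, so neither direction could be told from these data. Of the 2292 genes with a mean count within 1.5 times that of Tert, 83.2% had a smaller standard error, and their median was 0.15. A log2 fold change of at least 0.48 would have been needed for a call.

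Rif1 and Atrx were the other positive calls. The authors' deposited table gives Rif1 (ENSMUSG00000036202) a mean normalized count of 12650, the highest of the 10 genes, and a log2 fold change of 0.33 ± 0.12 (SE) (adjusted p = 0.0270). Its ratio was 1.25, with a 95% interval from 1.06 to 1.48. Among the 487 genes of similar mean count, 70.0% had a smaller standard error than Rif1. For Atrx (ENSMUSG00000031229) the authors' deposited table gives a mean count of 7571 and a log2 fold change of 0.27 ± 0.090 (SE) (adjusted p = 0.0117), a ratio of 1.20 with a 95% interval from 1.07 to 1.36. Both values were below the log2 fold limit of 0.5. Both calls were lost when centred on the ribosomal protein genes, at 0.23 for Rif1 and 0.18 for Atrx (adjusted p-values 0.137 and 0.128 by the recomputed Wald test). They grew to 0.45 and 0.39 when the trend over GC content and transcript length was removed (adjusted p-values 0.00131 and 8.93e-05), the lowest of their alternatives. Rif1 and Atrx have the longest transcripts of the 10 genes, at 8509 and 10275 bases, and the part of length in their values was not tested further.

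**Figure D2:**
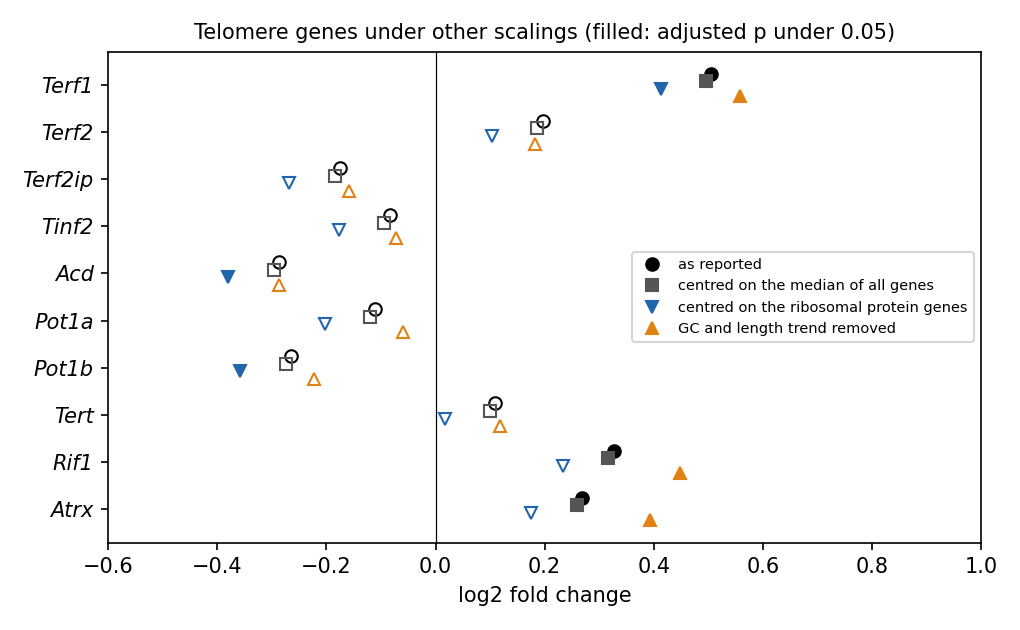
Log2 fold change of each gene as reported and under 3 other scalings, with filled symbols where the adjusted p-value was under 0.05. Terf1 is filled under all 4, Rif1 and Atrx lose their call and Acd and Pot1b gain one when centred on the ribosomal protein genes, and no gene crosses 0.

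The 10 genes lay among well-measured genes of the table. Their median mean count was 1297, against 394.2 over all genes, and their median standard error was 0.11, against 0.18. The 3 called genes were also the 3 with the highest mean counts, and the 2 lowest of the 10 standard errors were those of Terf1 and Atrx. Among genes within 1.5 times the mean count of Terf1, 31.6% were called, and around Rif1 and Atrx 25.1% and 30.0%.

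**Figure D3:**
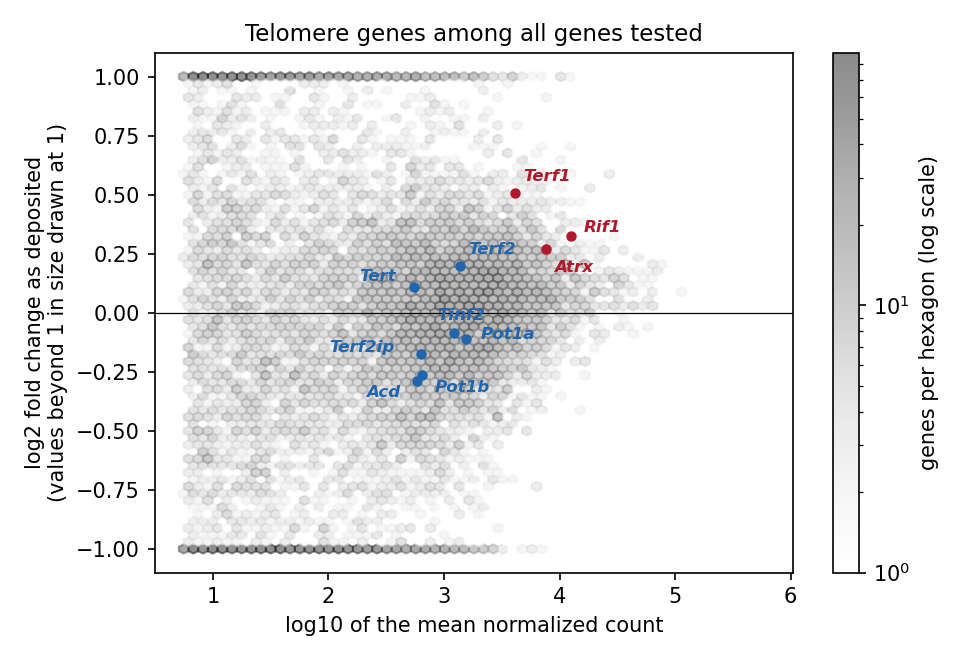
Log2 fold change in the authors' deposited table against the log10 of the mean normalized count, with all 17110 genes as grey hexagons and the 10 telomere genes as points, red where called. Terf1, Rif1 and Atrx lie at the right and above 0, and the 7 uncalled genes lie close to 0 within the densest part of the cloud.

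The level of each gene was compared as the authors' mean normalized count per kilobase of its longest coding transcript. This mean is pooled over the libraries, so it has no spread here, and the order of close values is not shown to differ. Terf1 was the highest at 1822 per kilobase and Rif1 followed at 1487. Atrx stood at 736.9, Terf2 at 513.3, Pot1a at 490.8 and Tinf2 at 414.7 on the same per-kilobase scale. The lowest levels per kilobase were those of Pot1b (184.6), Acd (183.4), Terf2ip (177.5) and Tert (126.5). Terf1 was thus 14.4 times the level of Tert, and 20.2 times per kilobase of coding sequence alone.

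Within the pairs, the per-kilobase level of Pot1a was 2.66 times that of Pot1b, and that of Terf1 was 3.55 times that of Terf2. Per kilobase of coding sequence, these ratios were 2.38 and 3.88. Coding length kept Terf1, Rif1 and Atrx at the top and Tert at the bottom but changed the order between them. On that scale Tinf2 (986.9) came above Terf2 (843.5) and Pot1a (805.5), and Pot1b (338.7) fell below Terf2ip (536.0) and Acd (463.5). The exons that Tinf2 and Acd share with other genes may bear on their levels too.

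**Figure D4:**
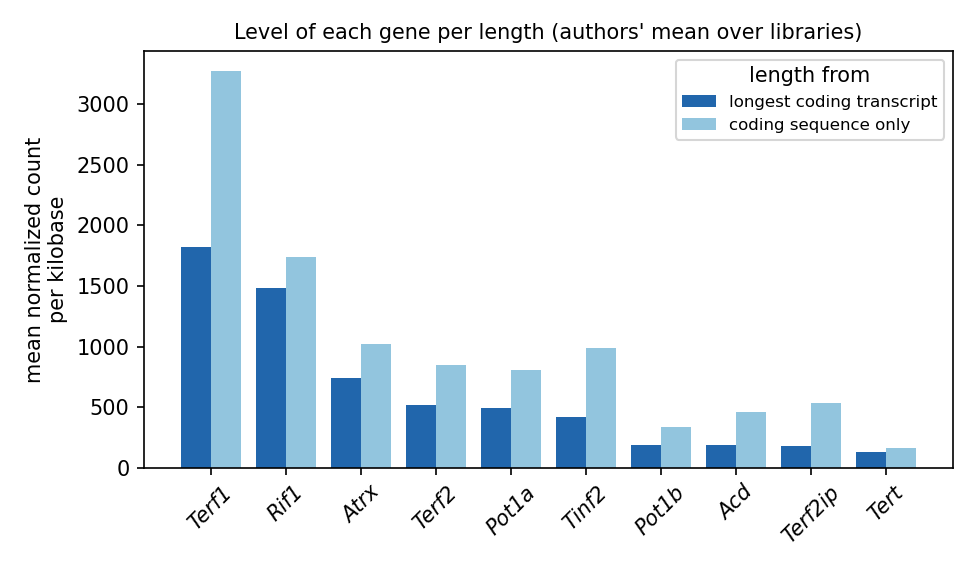
Mean normalized count per kilobase for each of the 10 genes, by the length of the longest coding transcript (dark bars) and of the coding sequence alone (light bars), with no error because the mean is pooled over libraries. Terf1 is the highest and Tert the lowest on both scales.

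The 250 bases before the RefSeq start site are shown for Atrx, a called gene with a positive value, and for Acd and Pot1b, the most negative values of the 10. RefSeq entries (GRCm38.p6) matched 8 of the 10 genes, all but Terf1 and Rif1. Where a gene had 2 start sites, the first listed was used. Capitals mark matches, on either strand, to a GC box (GGGCGG), an E-box (CACGTG), a cyclic AMP response element (TGACGTCA), an octamer (ATGCAAAT) or a CCAAT box (CCAAT).
Atrx, GRCm38.p6 chrX:105929373-105929622, minus strand: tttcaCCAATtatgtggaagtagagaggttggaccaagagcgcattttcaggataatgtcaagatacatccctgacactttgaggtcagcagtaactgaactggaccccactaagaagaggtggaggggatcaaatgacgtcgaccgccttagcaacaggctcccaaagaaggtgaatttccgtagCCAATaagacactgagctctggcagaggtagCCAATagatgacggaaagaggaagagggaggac
Acd, GRCm38.p6 chr8:105701229-105701478, minus strand: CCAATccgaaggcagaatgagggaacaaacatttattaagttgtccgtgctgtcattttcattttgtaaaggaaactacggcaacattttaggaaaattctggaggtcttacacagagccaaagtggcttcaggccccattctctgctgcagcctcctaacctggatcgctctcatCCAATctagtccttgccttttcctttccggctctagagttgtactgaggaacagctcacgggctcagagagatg
Pot1b, GRCm38.p6 chr17:55712637-55712886, minus strand: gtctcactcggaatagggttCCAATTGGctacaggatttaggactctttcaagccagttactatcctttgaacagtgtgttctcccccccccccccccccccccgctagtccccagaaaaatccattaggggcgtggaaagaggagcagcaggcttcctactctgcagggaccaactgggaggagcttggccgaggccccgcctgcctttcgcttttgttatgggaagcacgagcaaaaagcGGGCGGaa
The Atrx window held 3 CCAAT boxes. The Acd window held 2 CCAAT boxes, and the Pot1b window held 1 GC box and 2 CCAAT matches, one on each strand, that overlap. Over all 32851 windows of this length, 33.8% held a CCAAT box and 32.7% a GC box. The window of Tert held 2 GC boxes, that of Pot1a 1 and that of Tinf2 a cyclic AMP response element, which 1.55% of all windows held. Terf2 had 1 CCAAT box and Terf2ip no match. No E-box and no octamer was found in any of the 8 windows, and 6.02% and 1.60% of all windows held them. These matches are a description of the letters, and binding was not measured.

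The wider telomere machinery was examined through 6 lists of genes. Of 105 listed symbols, 95 had a row used here, and the others, among them Terc and the Zscan4 genes, were not analysed here. In the authors' deposited table, 21 of the 95 were called positive and 5 negative, and 27.4% were called in all, against 30.5% of all genes. Over all genes, 14.6% were called positive and 15.9% negative. The median log2 fold change of the 95 genes was 0.080, against 0.0097 over all genes. Centred on the median of all genes, 21 were called positive and 6 negative. Removal of the GC and length trend gave 25 and 6. Centred on the ribosomal protein genes, the median of the 95 was -0.013, with 11 positive and 20 negative calls. That centring gave 1864 positive and 3508 negative calls over all genes. The majority of positive calls was lost under ribosomal centring only.

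The telomerase particle was examined first because Tert itself was not called. Of 17 genes for its RNA-binding proteins and its assembly, 3 were called positive and 0 negative (4 had an unadjusted p-value under 0.05). The share called was 17.6%, against 30.5% of all genes (14.6% positive and 15.9% negative). The list had a median of 0.14 on the log2 scale. Dkc1 and Nop10 encode dyskerin and its partner in the box H/ACA particle that holds the telomerase RNA. In the authors' deposited table Nop10 had a log2 fold change of 0.41 ± 0.14 (SE) (adjusted p = 0.0137) and Dkc1 0.26 ± 0.096 (SE) (adjusted p = 0.0219). Hsp90aa1, a chaperone that acts in telomerase assembly among many other clients, stood at 0.33 ± 0.098 (SE) in the authors' deposited table (adjusted p = 0.00360). The calls of Nop10 and Dkc1 were lost after ribosomal centring, which left 1 positive and 1 negative call in the list.

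The complex of CTC1, STN1 and TEN1 fills in the telomeric C-strand with DNA polymerase alpha-primase. Their list held 1 call among 7 genes (14.3%, against 30.5% of all genes). This was Pola1, the catalytic subunit of the polymerase, at 0.72 ± 0.093 (SE) in the authors' deposited table (adjusted p = 2.22e-13). The other 3 subunits of the polymerase were not called, and Prim1, Pola2 and Prim2 stood at 0.082, -0.029 and 0.016 in the authors' deposited table. Stn1 had -0.33 ± 0.14 (SE) in the authors' deposited table (adjusted p = 0.0582), and it was called negative after ribosomal centring and after removal of the GC and length trend.

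Among 18 helicases, nucleases and end-binding factors, 4 were called positive and 1 negative (27.8% in all, against 30.5% of all genes). Pif1, a DNA helicase whose yeast relative removes telomerase from ends, had a log2 fold change of 0.81 ± 0.16 (SE) in the authors' deposited table (adjusted p = 4.5e-06). Rtel1, the helicase that unwinds telomeric loops, stood at 0.44 ± 0.093 (SE) in the authors' deposited table (adjusted p = 1.61e-05), and Xrcc5, which encodes Ku80, at 0.36 ± 0.11 (SE) (adjusted p = 0.00458). The negative call was Wrn, the helicase lost in Werner syndrome, at -0.40 ± 0.15 (SE) in the authors' deposited table (adjusted p = 0.0279). That call was lost when the GC and length trend was removed, and the call of Ercc4, a nuclease gene at 0.38 ± 0.15 (SE) in the authors' deposited table, was lost after ribosomal centring, where the list had 3 positive and 4 negative calls.

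Of 16 genes of H3.3 deposition and heterochromatin, 5 were called positive and 1 negative (37.5% in all, against 30.5% of all genes). Suv39h1, which methylates histone H3 at telomeric heterochromatin, was the negative one, at -0.90 ± 0.095 (SE) in the authors' deposited table (adjusted p = 2.19e-19). Trim28 and Cbx1, a corepressor and a heterochromatin protein, stood at 0.65 and 0.41 there, with standard errors of 0.13 and 0.082 in the authors' deposited table. Kmt5c, an H4 methyltransferase, had 0.35 ± 0.12 (SE) in the authors' deposited table. Daxx, named because it is the direct partner of Atrx and after its value was seen, had 0.33 ± 0.12 (SE) in the authors' deposited table (adjusted p = 0.0179). After ribosomal centring, Daxx, Kmt5c and Pml were no longer called, as with Atrx, and the list had 2 positive and 4 negative calls.

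The largest fold changes of all the telomere genes were in the meiotic attachment complex. Terb1, Terb2 and Majin encode the proteins that tether telomeres to the nuclear envelope in meiosis by binding TRF1. In the authors' deposited table Majin had a log2 fold change of 3.40 ± 0.55 (SE) (adjusted p = 8.35e-09) at a mean normalized count of 33.5. Terb2 stood at 2.48 ± 0.51 (SE) (adjusted p = 1.08e-05) at a mean count of 33.4 in the authors' deposited table. Terb1 was not called, at a mean count of 11.5 and a value of -1.10 ± 0.72 (SE) in the authors' deposited table (adjusted p = 0.259). Both calls held after ribosomal centring and after removal of the GC and length trend, but both genes fall below a mean count of 50, a filter that left 19 of the 21 positive calls among the other telomere genes. Counts per library were not analysed here.

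The list of repeat binders and recombination factors, which holds these 3 genes, had 4 positive and 3 negative calls among 18 genes. This is 38.9%, against 30.5% of all genes. After ribosomal centring the list had 3 positive and 7 negative calls. Zbtb10, a zinc-finger protein that binds telomeric repeats, was the most negative telomere gene, at -1.35 ± 0.27 (SE) in the authors' deposited table (adjusted p = 6.1e-06). Brca2, a recombination mediator, stood at 0.57 ± 0.14 (SE) in the authors' deposited table (adjusted p = 0.000215). Of the RIF1 partners and checkpoint genes, 4 of 19 were called positive and 0 negative (7 had an unadjusted p-value under 0.05). The share called was 21.1%, against 30.5% of all genes (14.6% positive and 15.9% negative). The 4 calls were Shld1, a shieldin subunit downstream of RIF1, at 0.63 ± 0.18 (SE) in the authors' deposited table, and Chek2, Chek1 and Rpa1 at 0.29, 0.27 and 0.21. The calls of Chek1, Chek2 and Rpa1 were lost after ribosomal centring, and 3 genes of this list were then called negative. Over all genes, that centring gave 1864 positive and 3508 negative calls.

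**Figure D5:**
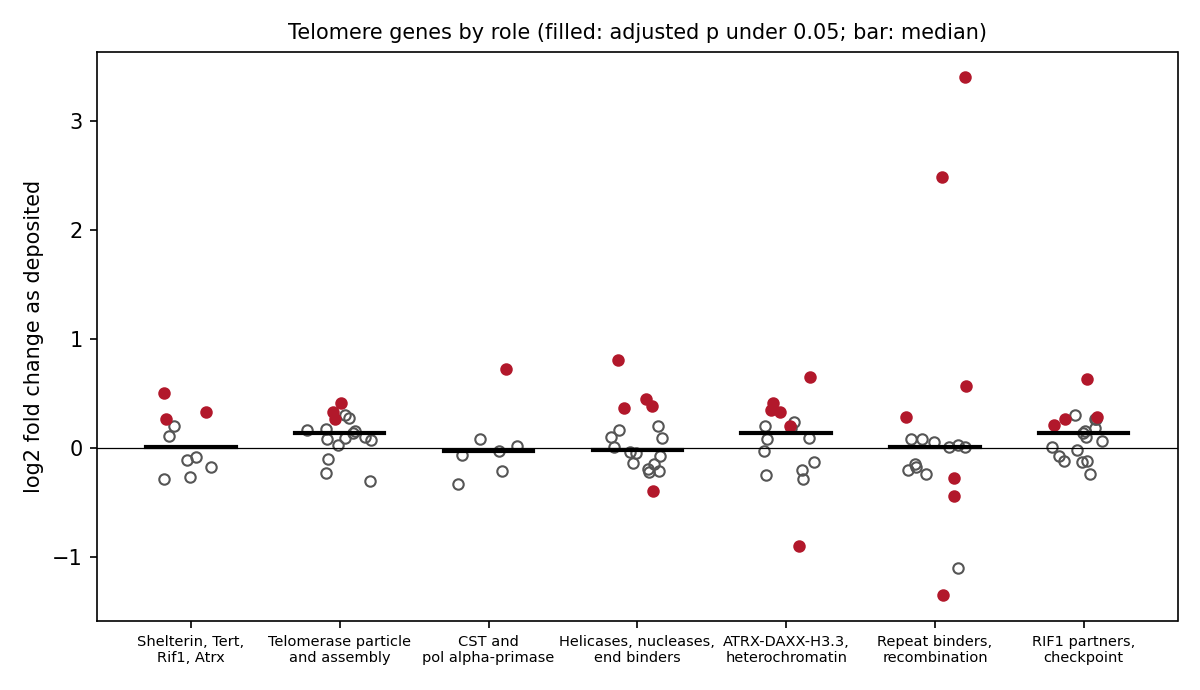
Log2 fold changes in the authors' deposited table for the 10 genes (first column) and for the 95 other telomere genes in 6 lists, filled where the adjusted p-value was under 0.05, with a bar at each median. Majin and Terb2 stand far above the rest, Zbtb10 and Suv39h1 are the lowest filled points, and the medians lie between -0.029 and 0.14.

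Markers of cell state moved in the same comparison. The stem cell label was met by high mean counts of Pou5f1 (32810), Sox2 (10086) and Nanog (10034) in the authors' deposited table. Of 15 pluripotency genes, 11 were called positive and 0 negative, with values from -0.046 to 2.39 in the authors' deposited table. Over all genes, 14.6% were called positive and 15.9% negative. The calls of Terf1, Rif1 and Atrx were positive too, as were 47.8% of all calls. Of 9 trophectoderm markers, 6 were negative calls, with all values between -5.82 and -0.20 in the authors' deposited table. The fibroblast markers had 5 negative calls and 1 positive among 8, the formative epiblast markers 5 and 1 among 8, and the primitive endoderm markers 2 and 1 among 8. Only 3 of 16 listed two-cell markers had a row used here, of which Calcoco2 was called, at 3.10 ± 0.14 (SE) in the authors' deposited table. In bulk samples, fewer cells of a type and less RNA per cell cannot be told apart. Marker levels in each group were not analysed here, and the part of these markers in the values of the telomere genes was not tested.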

How the data were processed

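Polyadenylated RNA of 6 samples, 3 DsRed2+ and 3 DsRed2-, was sequenced from both ends on the DNBSEQ platform, per the labels' protocols. Per the submitters' processing notes, FastQC 0.12.1, Trimmomatic 0.39, STAR 2.7.11b, RSEM 1.3.3, DESeq2 1.45.3 and the build GRCm39 were used. The annotation release, the strand setting, the model formula and the reference group are not given in the sources used here. The authors deposited 1 table of their comparison. Its mean normalized count is a signal that the authors averaged over libraries, its fold change and standard error are log2 values as deposited, its statistic is a score deposited by the authors that equalled fold change over standard error within 5.77e-07, and its p-value and adjusted p-value were used as deposited.

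A deposited table of counts has 6 columns that match no sample, and their values were not used. edgeR, planned for them, was therefore not run, and depth per library is unknown here. The replicates are described in the labels as biological.

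A gene was called at an adjusted p-value under 0.05. Intervals of 95% are the fold change plus or minus the normal quantile times the standard error. Fold changes were recentred or freed of a trend over GC content and length (loess, span 0.3, R 4.3.3, 16795 genes), with Wald p-values recomputed and adjusted by Benjamini-Hochberg in Python 3.11.15 with scipy 1.17.1. The Wald calls and the trend removal were tested on simulated data, with errors drawn from the deposited standard errors. The centrings were not tested in this way. Lengths, overlaps and coding sequences came from GENCODE M21 (GRCm38) by gene identifier, aligned with Biopython 1.88. GENCODE coordinates are not printed, since the builds differ. Promoters are from RefSeq (GRCm38.p6).

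The members and lists were chosen with earlier results of these data known. Named were the 10 genes, up to 4 called genes a list by smallest p-value, and overlapping or neighbouring genes. Daxx, Pml, Ercc4, Stn1, Prim1, Pola2, Prim2, Terb1 and the markers were named after their values were seen.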

Additional observations from a re-analysis of the deposited data

How the results depend on the processing

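No paired analysis was possible because the columns of counts name no replicate and the authors' comparison gives 1 value per gene. For the same reason edgeR, DESeq2 on the counts, other normalizations of the counts, edgeR's own count filter and leaving out each replicate were not run, so whether 1 library decides a value was not answered. Of the 80 values of the 10 genes under 8 alternatives, 69 kept direction and call, 9 lost a call, 2 gained one and none changed sign. A sign could change only under the centrings and the trend removal, since the other settings leave the fold change as deposited. Under the stricter limits an uncalled gene could not gain a call. The tally is therefore in large part fixed by the choice of settings. The positive calls, 3 of 10, came to 1 at an adjusted p-value of 0.01, 1 past a log2 fold change of 0.5 and 0 past 1, which the stricter limits themselves produce, and to 1 after ribosomal centring, where negative calls came to 2 from 0. Of the 95 other telomere genes, 21 positive and 5 negative calls came to 7 and 2 past 0.5 and to 2 and 1 past 1. They came to 21 and 6 when centred on the median of all genes. Without the GC and length trend they came to 25 and 6, and after ribosomal centring to 11 and 20. That centring subtracts 0.093 from every value, and which centre is nearer to the cells' true scale was not tested. Without depth per library, a low mean count (Terb2, Majin, Terb1) was not checked against its libraries.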

Other observations

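Neighbours were the next protein-coding genes with a row on each side of the 10 genes, in GENCODE M21 order, leaving out genes that overlap them. Of these 20 neighbours, 3 were called positive and 4 negative (35.0%, against 30.5% of all genes). Of the 4 neighbours of the POT1 genes, a subset picked after the values were seen, 3 were called negative, as were 15.9% of all genes. Whether genes of these regions change together was not tested. Pot1a, at -0.11, lies between Gpr37 at -5.46 ± 1.18 (SE) (mean count 15.2) and Zfp800 at -1.27 ± 0.20 (SE) in the authors' deposited table. Pot1b, at -0.27, lies next to St6gal2, a sialyltransferase gene, at -3.74 ± 0.33 (SE), and Zfp119a, on its other side, was not called at -0.26 ± 0.27 (SE) in the authors' deposited table. Beside Terf1, Trpa1, an ion channel gene, stood at -1.31 ± 0.37 (SE) and Rpl7, a ribosomal protein gene, at 0.15 ± 0.081 (SE) in the authors' deposited table. Neb, beside Rif1, was called at 0.98 ± 0.26 (SE), and Tgm1, beside Tinf2, at 1.10 ± 0.24 (SE) in the authors' deposited table. Cyb5b, beside Terf2, was called there at 0.26 ± 0.092 (SE). Neither neighbour of Atrx, Tert, Acd or Terf2ip was called.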
